A study of Homo sapiens with 3 samples.

Results

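The aldehyde dehydrogenase (ALDH) genes described here are 10 members chosen by name from the deposited gene table: ALDH1A1, ALDH1A3, ALDH1B1, ALDH1L2, ALDH2, ALDH3A1, ALDH3A2, ALDH7A1, ALDH9A1 and ALDH18A1. All 10 were found among 46427 genes, and all 10 passed the expression filter of 1 CPM (counts scaled to library size) in at least 1 library, as did 14233 genes in all. The other 9 human ALDH genes were read for context, and 5 of them passed. The cells were MG-OKS, which the series title calls artificially made osteosarcoma cells that resemble cancer stem cells, and which the labels type as mesenchymal. There were 3 groups of 1 library each: MG-OKS labelled WT with no transfection, MG-OKS given a scrambled siRNA with a lipid reagent, and MG-OKS given an siRNA against SPRR1A with the same reagent, labelled as an SPRR1A knock down. These are called WT, control-siRNA and SPRR1A-siRNA here, and values given in threes keep that order. All groups share the MG-OKS line and its serum-containing medium. A timed change of medium is recorded for both transfected groups and none for the WT group, so comparisons with WT include that step. A result therefore describes single cultures of 1 line, and the time from transfection to RNA isolation was not given in the sources used here.

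Most aldehyde dehydrogenases use NAD or NADP to oxidise reactive aldehydes to carboxylic acids. Some members make signalling molecules such as retinoic acid, some clear acetaldehyde or fatty aldehydes, and some are steps of amino acid, folate or carnitine metabolism. High ALDH enzyme activity is widely used to enrich stem-like cells from tumours, osteosarcoma included, and ALDH1A1 and ALDH1A3 are the members most often held responsible for that activity.

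Total counts were 40050593 (WT), 36533542 (control siRNA) and 34453554 (SPRR1A siRNA). SPRR1A, the targeted gene, had 0 counts in all 3 libraries, so it checks no label. A count of 0 allows a level of up to 0.0737, 0.0826 and 0.0880 CPM in that order, counting 3 reads as the floor. This bound covers counting error only. It does not cover reads left uncounted because they align to several genes, and the counting tool is not given in the sources used here. Of 12 mesenchymal markers all passed the filter, with a summed level of 4423, 4210 and 1982 TPM in the WT, control-siRNA and SPRR1A-siRNA libraries, most of it vimentin. The 11 keratinocyte or epithelial markers, of which 8 passed, summed to 6856, 2915 and 3779 TPM in the same order, most of it KRT14 and KRT6A, although CDH1, EPCAM and TP63 stayed below 1 TPM. Of 9 osteoblast markers 3 passed, the list summed to 17.7, 11.3 and 11.5 TPM, and SP7, IBSP, DLX5 and DMP1 were at 0 in every library. Of 8 endothelial or blood markers 3 passed, the list summed to 137, 102 and 85.1 TPM, most of it CD68, and CDH5 and HBB were at 0. The part of these marker differences in the ALDH values was not tested.

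ALDH3A1 and ALDH1A3 dominated the family. Levels of different genes are compared in TPM, the authors' unit scaled for gene length and library size. ALDH3A1, a cytosolic enzyme known as a corneal crystallin that oxidises medium-chain and aromatic aldehydes, stood at 441, 371 and 219 TPM in the WT, control-siRNA and SPRR1A-siRNA libraries. ALDH1A3, which turns retinaldehyde into retinoic acid, stood at 268, 255 and 274 TPM in the same order. Together they held 72.6%, 71.4% and 65.5% of the summed TPM of the 10 members. ALDH1A3 was in the top position only in the SPRR1A-siRNA library, where its share was 36.4% against 29.1% for ALDH3A1.

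The next level was held by ALDH3A2, the microsomal fatty aldehyde dehydrogenase, at 87.5, 80.5 and 73.6 TPM. A middle group of ALDH18A1, ALDH7A1, ALDH1B1 and ALDH9A1 lay between 27.3 and 57.9 TPM over the 3 libraries. Their order changed: ALDH18A1 was the highest of these in both controls and the lowest in the SPRR1A-siRNA library, where ALDH9A1 led. ALDH1L2 lay between 13.2 and 15.7 TPM. ALDH2 stayed between 2.41 and 3.21 TPM and ALDH1A1 between 0.571 and 2.31 TPM. With 1 library per group no spread between replicates exists, so neighbours in this order cannot be tested against one.

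**Figure D1:**
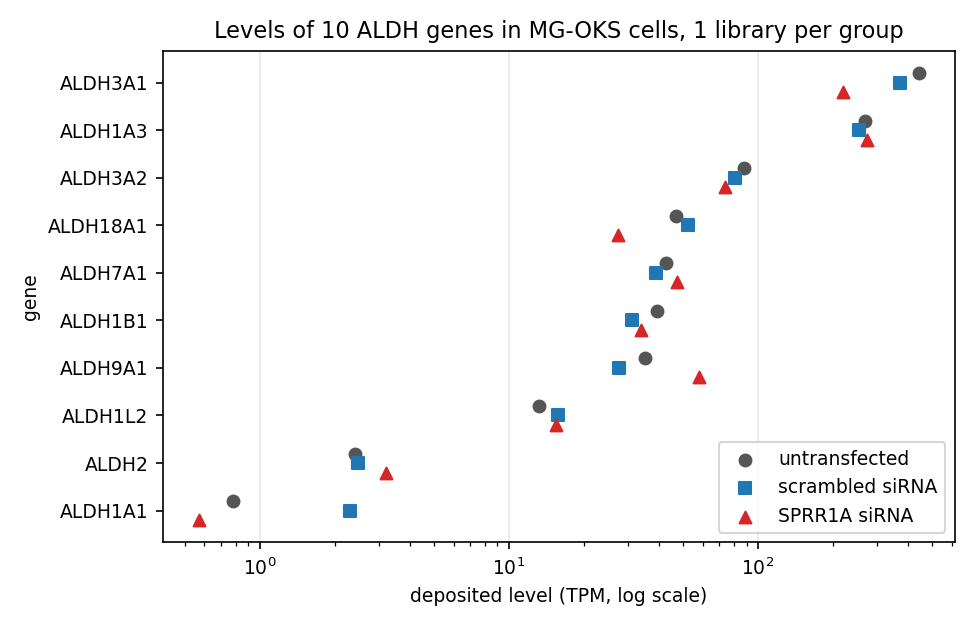
Deposited level in TPM (log axis) of the 10 ALDH genes, ordered by the untransfected library, with 1 point per library (circle untransfected, square scrambled siRNA, triangle SPRR1A siRNA). ALDH3A1 and ALDH1A3 lie above 200 TPM in every library and ALDH1A1 lies lowest, except that it comes close to ALDH2 in the scrambled library.

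The summed TPM of the 10 members was 977, 877 and 753 in the WT, control-siRNA and SPRR1A-siRNA libraries. Without ALDH3A1 the other 9 members summed to 535, 506 and 533 TPM. The difference in the summed TPM of these 10 members between the WT and the SPRR1A-siRNA library thus lay almost wholly in ALDH3A1. Among the other 9, single members moved in opposite directions. From the WT to the SPRR1A-siRNA library, ALDH9A1 went from 35.2 to 57.9 TPM and ALDH18A1 from 46.7 to 27.3 TPM. The 9 ALDH genes outside the members summed to 97.4, 104 and 42.4 TPM in the WT, control-siRNA and SPRR1A-siRNA libraries. In such bulk RNA, fewer cells that express a gene and less RNA per cell cannot be told apart.

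**Figure D2:**
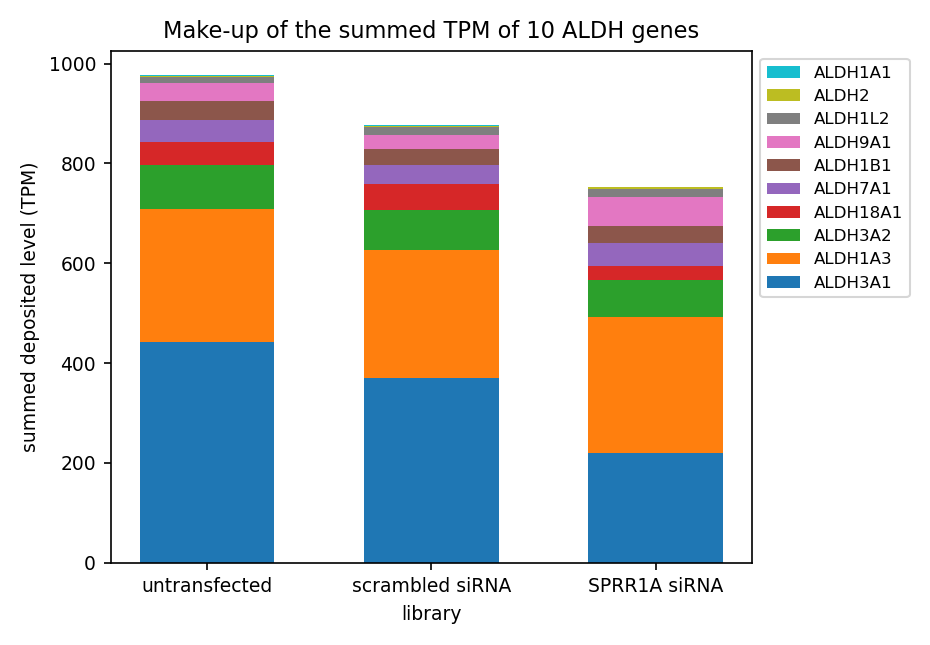
Summed deposited TPM of the 10 ALDH genes in each library, stacked by gene in the order of the untransfected library. The total steps down from 977 to 877 to 753 TPM, and the ALDH3A1 segment at the base shrinks while the segments above it keep a similar sum.

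Between libraries the genes were compared in CPM scaled by TMM factors, with log2 ratios that include a prior count of 2. A call needed a difference of 2-fold or more with an exact 95% counting interval of the ratio that left out 1. Such a call compares libraries, has no replicate check and carries no p-value, and the intervals cover counting error only. Of the 10 members, 1 was called higher and 1 lower in the SPRR1A-siRNA than in the control-siRNA library, where 3.7% of all genes tested were called higher and 7.26% lower. None was called against the WT library, where 2.35% of genes were called higher and 8.36% lower. Between the controls 1 member was called higher in the control-siRNA library, against 1.51% of genes higher and 3.44% lower. Counts this small among 10 genes do not set the family apart from all genes.

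The median log2 ratio of the members was 0.02 to the control-siRNA and -0.04 to the WT library, and -0.04 between the controls. Over all genes tested the medians lay within 0.01 of 0 in each comparison. In each comparison with the SPRR1A-siRNA library 5 members lay below and 5 above 0. The SPRR1A-siRNA library held the highest or lowest CPM of the 3 libraries for 8 of the 10 members, or 80.0%, beside 78.1% of all genes tested. The 2 comparisons share the SPRR1A-siRNA library.

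**Figure D3:**
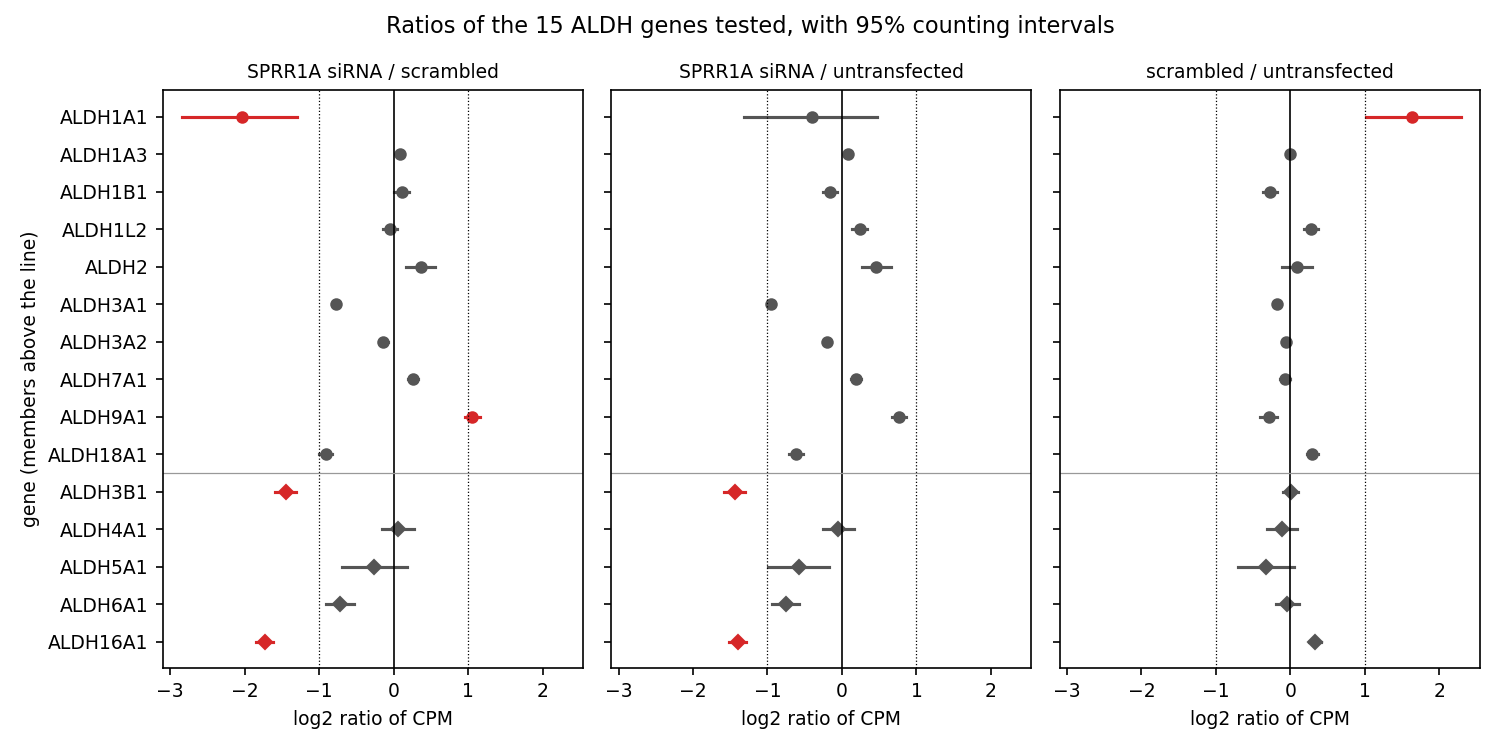
Log2 ratio of CPM (points, computed without a prior count) with 95% counting intervals (bars) for the 15 ALDH genes tested in the 3 comparisons, the 10 members (circles) above the line and 5 other ALDH genes (diamonds) below it. Red marks a call, and dotted lines mark 2-fold. Most members lie within 2-fold in every panel, while ALDH3B1 and ALDH16A1 lie past 2-fold in both panels with the SPRR1A siRNA library.

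Among the retinaldehyde dehydrogenases, ALDH1A1 (NCBI Gene 216, chromosome 9, 72900671 to 72953053, GRCh38) was the member called lower. It had 30, 83 and 19 counts in the WT, control-siRNA and SPRR1A-siRNA libraries, or 0.737, 2.29 and 0.557 CPM. The control-siRNA library stood apart from the other 2. ALDH1A1 was 4.10-fold lower in the SPRR1A-siRNA than in the control-siRNA library (95% counting interval 2.47 to 7.15), and 3.10-fold higher in the control-siRNA than in the WT library (2.02 to 4.88). Against the WT library the SPRR1A-siRNA library was 1.32-fold lower, with an interval of 0.720 to 2.48 that included no change. The call thus rests on 1 library with few reads, the only 1 in which the gene reached 1 CPM. A filter of 5 CPM removed the gene.

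ALDH1A3 (Gene 220, chromosome 15, 100879831 to 100916626) was far more abundant and nearly level. It had 16987, 15053 and 15049 counts, or 417, 415 and 442 CPM, in the WT, control-siRNA and SPRR1A-siRNA libraries. The SPRR1A-siRNA library was 1.07-fold above the control-siRNA (1.04 to 1.09) and 1.06-fold above the WT library (1.04 to 1.08). These differences exceed counting error, but no replicate shows whether they exceed the spread between cultures. An overlapping long noncoding RNA gene, LOC101927751, had 303, 257 and 345 counts, and the part of shared reads was not tested. ALDH1A2, the third retinaldehyde dehydrogenase, had 22, 16 and 8 counts and did not pass the filter.

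Genes around retinoic acid were read from a list of 23, of which 14 passed the filter. Against the control-siRNA library 2 were called lower and none higher, and against the WT library 4 were lower and none higher, beside 7.26% and 8.36% of all genes tested called lower. DHRS9, a dehydrogenase that acts on retinol, had 232, 215 and 41 counts in the WT, control-siRNA and SPRR1A-siRNA libraries and was 4.92-fold lower than in the control-siRNA library (3.51 to 7.05). RXRA, the retinoid X receptor that partners retinoic acid receptors, had 3841, 2694 and 852 counts and was 2.97-fold lower (2.75 to 3.21). Both were also lower than in the WT library, by 4.74-fold and 3.77-fold. The others called there, chosen after their values were seen, were the retinol carrier RBP4 and the receptor RARA, at log2 ratios of -2.14 and -1.07. RBP4, with 102, 39 and 18 counts, was also called lower in the control-siRNA than in the WT library. The list's median log2 ratio was -0.32 to the control-siRNA and -0.55 to the WT library, and -0.27 between the controls.

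The mitochondrial acetaldehyde dehydrogenases ALDH2 and ALDH1B1 differed little. ALDH2 (Gene 217, chromosome 12, 111766933 to 111817532) had 423, 403 and 487 counts, or 10.4, 11.1 and 14.3 CPM, in the WT, control-siRNA and SPRR1A-siRNA libraries. It was 1.29-fold higher in the SPRR1A-siRNA than in the control-siRNA library (1.13 to 1.47), while the controls were within counting error of each other. ALDH1B1 (Gene 219, chromosome 9, 38392702 to 38398661) had 2179, 1612 and 1632 counts, or 53.5, 44.4 and 47.9 CPM. For ALDH1B1 the WT library was the high one, and the control-siRNA library lay 1.21-fold below it (1.13 to 1.29). Of 7 alcohol dehydrogenase genes, whose enzymes make aldehydes from alcohols, only ADH5 passed the filter, at a log2 ratio of 0.25 to the control-siRNA library, and 5 were at 0 in every library.

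ALDH1L2 (Gene 160428, chromosome 12, 105019790 to 105084458), the mitochondrial formyltetrahydrofolate dehydrogenase of one-carbon metabolism, had 1815, 1965 and 1789 counts, or 44.6, 54.1 and 52.5 CPM. Both transfected libraries lay above the WT library, the control-siRNA by 1.21-fold (1.14 to 1.29) and the SPRR1A-siRNA library by 1.18-fold (1.10 to 1.26). They did not differ from each other beyond counting error. Of 18 one-carbon folate genes, all tested, 1 was called lower than in the control-siRNA library and none higher; the median log2 ratio was -0.20. It was AMT, a subunit of the glycine cleavage system, with 93, 83 and 36 counts in the WT, control-siRNA and SPRR1A-siRNA libraries, and it was also called lower than in the WT library. Neither call was made with a filter of 5 CPM or with log2(TPM + 1), and 7.26% and 8.36% of all genes tested were called lower.

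Of the 2 members of the ALDH3A subfamily, ALDH3A1 (Gene 218, chromosome 17, 19737984 to 19748298) had the larger differences. It had 13538, 10698 and 5865 counts, or 332, 295 and 172 CPM, in the WT, control-siRNA and SPRR1A-siRNA libraries. The SPRR1A-siRNA library was lowest and the controls lay closer to each other. ALDH3A1 was 1.71-fold lower than in the control-siRNA (1.66 to 1.77) and 1.93-fold lower than in the WT library (1.87 to 1.99), short of the 2-fold rule both times. The control-siRNA library was itself 1.13-fold below the WT library (1.10 to 1.16). On the scale of log2(TPM + 1) the difference from the WT library was -1.01, which met the rule. Within the distribution over all genes tested, 11.1% had a lower log2 ratio to the control-siRNA library than ALDH3A1.

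ALDH3A2 (Gene 224, chromosome 17, 19648136 to 19677596), whose loss in people causes Sjögren-Larsson syndrome, had 5995, 5114 and 4361 counts, or 147, 141 and 128 CPM. It showed the same order with smaller steps, 1.10-fold lower than in the control-siRNA (1.06 to 1.15) and 1.15-fold lower than in the WT library (1.11 to 1.20). Of 15 genes of fatty aldehyde and sphingosine-1-phosphate breakdown, 12 were tested, and 1 was called higher and 2 lower than in the control-siRNA library, beside 3.7% and 7.26% of all genes tested. FAR1, the reductase that makes fatty alcohols for ether lipids, had 5116, 2595 and 5196 counts in the WT, control-siRNA and SPRR1A-siRNA libraries. The control-siRNA library was the one that stood apart: FAR1 was 2.13-fold higher in the SPRR1A-siRNA than in the control-siRNA library (2.03 to 2.24), but 1.21-fold higher than in the WT library. The lower genes were SGPP1, a sphingosine-1-phosphate phosphatase, at 2.08-fold, and CYP4F12, a cytochrome P450, at 2.50-fold. SGPP1 was also called lower than in the WT library and CYP4F12 was not. The count of 2 lower became 1 with a filter of 5 CPM and 0 with log2(TPM + 1). The list's median log2 ratio was -0.21 to the control-siRNA library.

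ALDH7A1 (Gene 501, chromosome 5, 126541841 to 126595219), also called antiquitin, oxidises the semialdehyde formed in lysine breakdown. It had 3746, 3174 and 3577 counts, or 92.0, 87.4 and 105 CPM, and was highest in the SPRR1A-siRNA library, 1.20-fold above the control-siRNA (1.14 to 1.26) and 1.14-fold above the WT library (1.09 to 1.19). Whether its pseudogene copies took some of its reads was not tested. Of 8 lysine catabolism genes 7 were tested, and none was called against the control-siRNA library, with a median log2 ratio of 0.14. Against the WT library PIPOX and HYKK, named after their values were seen, were called higher at log2 ratios of 1.01 and 1.02, beside 2.35% of all genes tested. Both calls were lost with library totals in place of TMM factors, or with a filter of 5 CPM (0 called).

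ALDH9A1 (Gene 223, chromosome 1, 165662216 to 165698562), which oxidises trimethylaminobutyraldehyde in carnitine synthesis, was the member called higher. It had 1623, 1182 and 2309 counts, or 39.8, 32.5 and 67.7 CPM, in the WT, control-siRNA and SPRR1A-siRNA libraries. The SPRR1A-siRNA library was the highest and the control-siRNA library the lowest. ALDH9A1 was 2.08-fold higher than in the control-siRNA library (1.94 to 2.23), with a lower bound under 2-fold. Against the WT library it was 1.70-fold higher (1.59 to 1.81), which did not meet the rule. The control-siRNA library was 1.22-fold below the WT library (1.14 to 1.32).

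Of 10 other listed genes of carnitine metabolism 8 were tested. None was called higher, beside 3.7% of all genes tested against the control-siRNA and 2.35% against the WT library. Against each control 2 were called lower, beside 7.26% of all genes tested against the control-siRNA and 8.36% against the WT library. SLC22A5, the plasma membrane carnitine transporter, had 361, 376 and 85 counts in the WT, control-siRNA and SPRR1A-siRNA libraries and was 4.15-fold lower than in the control-siRNA library (3.27 to 5.32). CPT1B, the muscle-type carnitine palmitoyltransferase, had 383, 427 and 89 counts and was 4.50-fold lower (3.58 to 5.72). TMLHE, the enzyme that opens the carnitine pathway, had a log2 ratio of -0.01 to the control-siRNA and 0.39 to the WT library. The list's median log2 ratio was -0.07 to the control-siRNA and -0.35 to the WT library.

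ALDH18A1 (Gene 5832, chromosome 10, 95605941 to 95656711) makes the pyrroline carboxylate precursor of proline from glutamate. It had 2845, 3111 and 1550 counts, or 69.9, 85.7 and 45.5 CPM, in the WT, control-siRNA and SPRR1A-siRNA libraries. The SPRR1A-siRNA library was the lowest and the control-siRNA library the highest. ALDH18A1 was 1.88-fold lower than in the control-siRNA library (a ratio of 0.531, with an interval of 0.499 to 0.564) and 1.54-fold lower than in the WT library (1.44 to 1.64), short of the rule both times. The control-siRNA library was 1.23-fold above the WT library (1.17 to 1.29). Of 11 proline and ornithine genes 8 were tested and none was called against the control-siRNA library. PYCR1, which finishes proline synthesis, was at -0.23, and OAT, which feeds the same intermediate from ornithine, was at 0.47 on the log2 scale. PRODH, which degrades proline, was called lower than in the WT library at -1.03, beside 8.36% of all genes tested. PRODH was named after its values were seen.

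**Figure D4:**
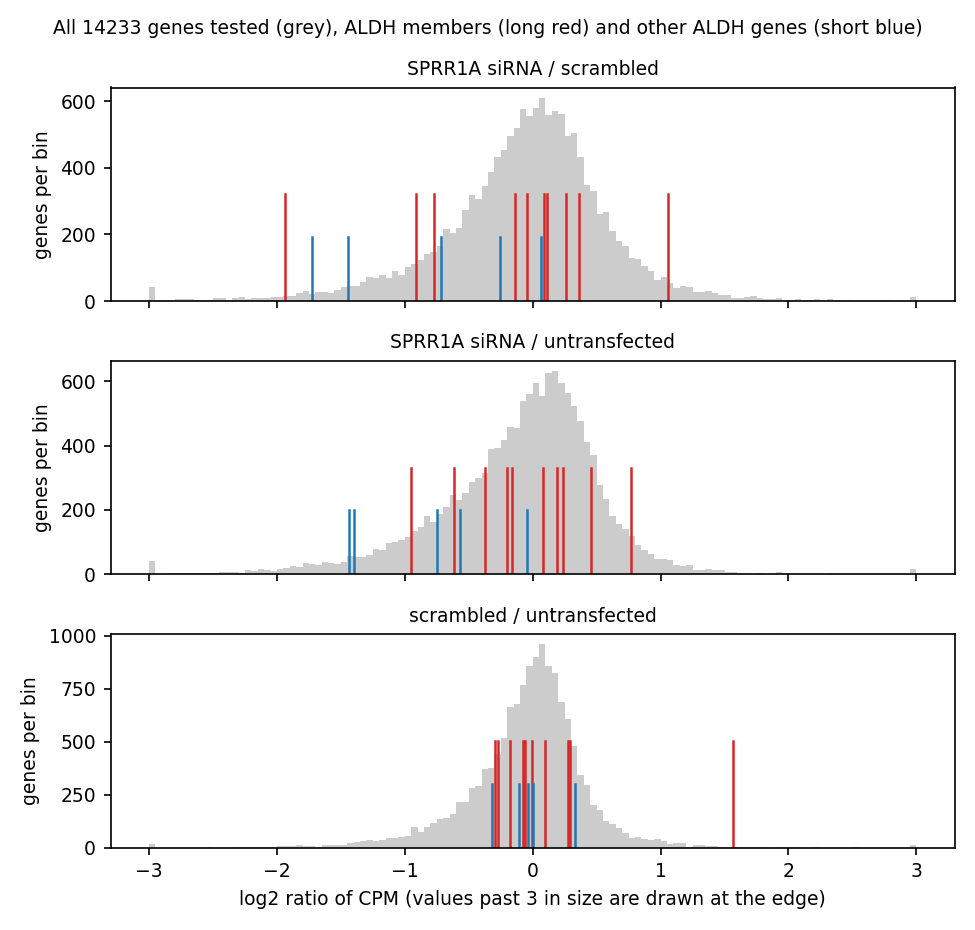
Histogram of the log2 ratio of CPM over all 14233 genes tested (grey) in the 3 comparisons, with the 10 ALDH members as long red lines and the 5 other tested ALDH genes as short blue lines. Most members lie inside the bulk of the grey distribution, while ALDH1A1 lies at -1.94 in the top panel and 1.57 in the bottom panel.

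The ALDH genes called against both controls lay outside the 10 members. Of the other 9 ALDH genes 5 were tested, and 2 of these, ALDH3B1 and ALDH16A1, were called lower than in both controls, as were 4.64% of all genes tested, with 1.03% higher. None of the 10 members was called against both controls. ALDH3B1 (Gene 221, chromosome 11, 68008547 to 68029276), a membrane-bound enzyme for lipid-derived aldehydes, had 1812, 1620 and 558 counts in the WT, control-siRNA and SPRR1A-siRNA libraries. It was 2.72-fold lower than in each control, with intervals of 2.47 to 3.01 to the control-siRNA and 2.47 to 2.99 to the WT library. ALDH16A1 (Gene 126133, chromosome 19, 49453225 to 49471050), a family member thought to lack catalytic activity in mammals, had 2548, 2861 and 810 counts. It was 3.31-fold lower than in the control-siRNA (3.07 to 3.59) and 2.63-fold lower than in the WT library (2.43 to 2.85). Between the controls the log2 ratio was 0.00 for ALDH3B1, while ALDH16A1 was 1.26-fold higher in the control-siRNA than in the WT library.

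ALDH6A1, which acts in valine breakdown, had 738, 641 and 366 counts in the WT, control-siRNA and SPRR1A-siRNA libraries, at a log2 ratio of -0.71 to the control-siRNA library. ALDH5A1, of GABA breakdown, and ALDH4A1, of proline breakdown, had log2 ratios of -0.25 and 0.06. ALDH8A1 had 11, 7 and 24 counts, ALDH1L1 had 0, 0 and 4, and ALDH3B2 had 0 in all 3 libraries, so none of these passed the filter.

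The 3′ untranslated regions of the ALDH genes were searched, on the transcript strand and after the values above were seen, for short sequences that went with low ratios over all genes. Among 7-base sequences held by at least 500 of 12278 genes searched, GTCACCC went with the lowest median log2 ratio of the SPRR1A-siRNA library to the control-siRNA library, at -0.15 against 0.01 for genes without it. It was also the lowest against the WT library. Of 11647 sequences compared its lead was small, as CGCCCTC followed at -0.14 against the control-siRNA library, and TCCCCGG and GTCACCC both lay at -0.19 against the WT library. GTCACCC was held by 13.1% of genes, of which 14.3% lay 2-fold or more below the control-siRNA library, beside 5.90% of the genes without it. The sequence was picked for its low median in these same ratios, so this difference is not separate evidence. None of the 10 members held GTCACCC. ALDH3B1 was one of the other ALDH genes that held it, in 4 of 5 transcripts, at the site printed here with the 7 bases in capitals, which is shown because ALDH3B1 was called lower than in both controls. Not all ALDH genes that held it are listed here. The ALDH3B1 site is at chr11:68028234-68028256 on the plus strand, in GENCODE release 29 on GRCh38.
ALDH3B1: acctctgaGTCACCCctctcctg

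The same ranking of 7-base sequences was read for the control-siRNA against the WT library. Such a ranking has a lowest sequence in any comparison. GCAGTAC went with the lowest median log2 ratio of the control-siRNA to the WT library, at -0.24 against 0.02 for genes without it, and was held by 5.64% of genes. Of the 10 members only ALDH9A1 held it, in its 1 transcript searched, at chr1:165662967-165662989 on the minus strand. ALDH9A1 was 1.22-fold lower in the control-siRNA than in the WT library, and 1.70-fold higher in the SPRR1A-siRNA than in the WT library. GCAGTAC was picked from the ratios between the controls, and its part in the ALDH9A1 values was not tested. The next sequence, GCAATAC, was at -0.11. ALDH6A1 held GCAGTAC in 1 of 3 transcripts, with a log2 ratio of -0.04 between the controls. Of 7 tested pathway genes that held it, 4 lay below and 3 above 0 between the controls, from -0.81 for FAR1 to 0.23 for MTHFD2. The site is shown with the 7 bases in capitals.
ALDH9A1: ttacagagGCAGTACaactgaat

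A match is a description of these letters and not of a binding site, and the sources used here give neither siRNA sequence. The members with low ratios to the control-siRNA library, ALDH1A1, ALDH18A1 and ALDH3A1, held neither sequence. Of the 7 pathway genes named above as lower than in the control-siRNA library, 1 held GTCACCC, namely RXRA, beside 13.1% of all genes searched. Among the other tested pathway genes RBP4 and MTFMT held it too. Neither was called against the control-siRNA library, at log2 ratios of -0.95 and 0.06. The part of either sequence in the ALDH values was not tested.

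**Figure D5:**
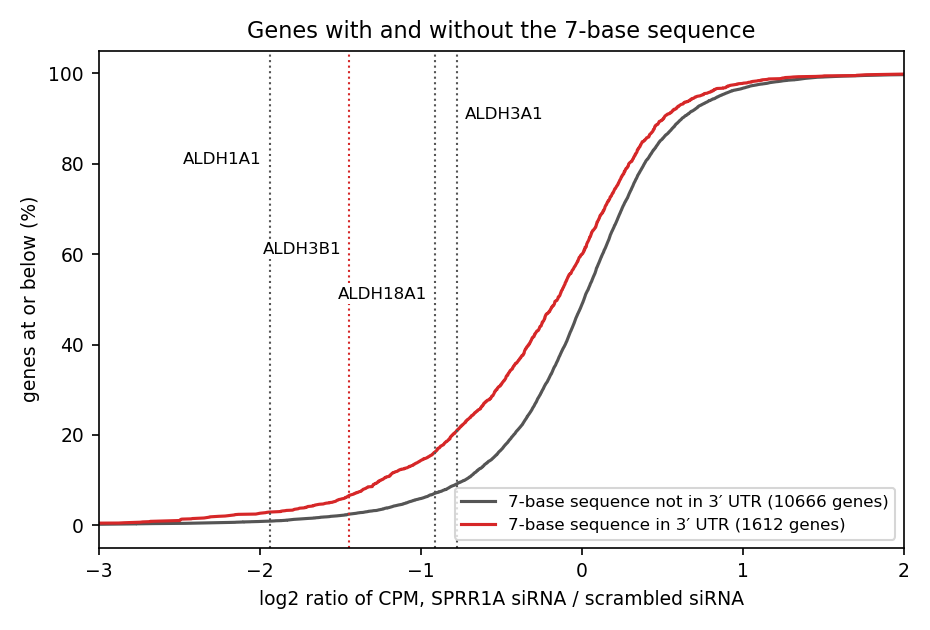
Cumulative share of genes (percent) by log2 ratio of CPM of the SPRR1A siRNA to the scrambled library, for 1612 genes that hold the 7-base sequence of the SPRR1A siRNA comparison in a 3′ untranslated region (red) and for the genes that do not (grey). Dotted lines mark ALDH3B1, which holds it (red), and ALDH1A1, ALDH18A1 and ALDH3A1, which do not (grey). The red curve lies above the grey curve over the range of ratios below 0. The sequence was chosen for its low median in these same ratios.

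Genes with the most similar pattern were found by distance in 2 log2 ratios over the 3 libraries, among genes within 4-fold of the mean CPM. For ALDH1A1 they were MTSS1, MIOX and SPATA12, at distances of 0.13, 0.15 and 0.18. MTSS1 had 31, 78 and 18 counts in the WT, control-siRNA and SPRR1A-siRNA libraries, the same peak in the control-siRNA library. For ALDH9A1 they were H4C15, JMY and LCOR, at distances of 0.0078, 0.0108 and 0.0241. JMY had 1400, 1022 and 2011 counts. The likeness covers 3 libraries only, and 3142 genes were candidates for ALDH1A1 and 8258 for ALDH9A1.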

How the data were processed

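Libraries were made with a stranded mRNA kit, per the labels' protocols. The authors deposited whole-number read counts per gene, and FPKM and TPM beside them, per the file headers. Reads were aligned with HISAT2 2.1.0 to GRCh38 (also named hg38), per the submitters' processing notes. The sources used here do not give the counting tool, its strand setting or the annotation release, so reads of overlapping or antisense genes may be shared.

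Over all genes, edgeR 4.0.16 (R 4.3.3) gave TMM factors of 1.0169, 0.994 and 0.9892 in the WT, control-siRNA and SPRR1A-siRNA libraries. Of 46427 genes, 14233 (30.7%) had at least 1 CPM in some library and entered the comparisons. Levels carry exact Poisson and ratios exact conditional binomial 95% intervals (SciPy 1.17.1). These, and the floor of 3 counts, cover counting error only, as no molecular identifiers are named. Dispersion and p-values were not computed, as each group has 1 library. Size factors from DESeq2 1.42.0 were an alternative. Gene coordinates are RefSeq's for GRCh38.

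The members and lists were chosen with earlier results of these data known. All ALDH genes were named, and list genes when called against the control-siRNA library or both controls. For members called against the control-siRNA library the 3 genes nearest in pattern were named. The 3′ untranslated region search, with its floor of 500 genes, was added after results were seen, and base composition was not adjusted for; 1 item of it is not reported here.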

Additional observations from a re-analysis of the deposited data

How the results depend on the processing

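No paired analysis was possible because each group holds 1 library, and leaving out a replicate was not run for the same reason. Single ALDH genes gave 354 recomputed values, most of them for gene comparisons without a call, which have no sign of a call to change. Among the values of comparisons with a call, none changed sign. With no filter, a filter of 5 CPM or a 1.5-fold threshold the log2 ratios of the genes tested equalled the main ones. For ALDH9A1 against the control-siRNA library that was 1.0563 each time. These settings therefore did not test the sign. The calls of ALDH9A1, ALDH3B1 and ALDH16A1 held in all 8 alternatives. Of these, no filter, a filter of 5 CPM and a 1.5-fold threshold could not undo them. In the others the log2 ratio of ALDH9A1 to the control-siRNA library lay between 1.0444 and 1.0609, close to the threshold of 1. The call of ALDH1A1 against the control-siRNA library held in the 7 in which the gene was tested. No filter and a 1.5-fold threshold could not undo the call of ALDH1A1 either. ALDH1A1 passed the filter of 1 CPM only through the control-siRNA library, so being tested there and being called rest on the same high value.

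Against the control-siRNA library, members called lower went from 1 to 3 with a 1.5-fold threshold, by adding ALDH3A1 and ALDH18A1. At that threshold 2252 of all 14233 genes tested were called lower. The members called lower went to 0 with a filter of 5 CPM, which removes ALDH1A1. Against the WT library, 1 member was higher and 2 lower with a 1.5-fold threshold, beside 1254 higher and 2581 lower of all 14233 genes tested. With log2(TPM + 1) 1 member was lower, which was ALDH3A1, beside 678 of all genes tested. Between the controls, no member was higher (0) with a filter of 5 CPM or with log2(TPM + 1).

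The share of ALDH3A1 plus ALDH1A3 became 62.1%, 60.7% and 57.1% of summed counts in the WT, control-siRNA and SPRR1A-siRNA libraries, and 66.0%, 63.8% and 62.0% of the TPM of all 19 ALDH genes.

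Counts over all genes moved with the filter, the fold and the unit. Against the control-siRNA library, higher and lower genes numbered 527 and 1034. They were 1182 and 1964 with no filter, 304 and 574 at 5 CPM, 1610 and 2252 at 1.5-fold and 289 and 523 with log2(TPM + 1). Against the WT library, 334 and 1190 became 958 and 2085, 172 and 653, 1254 and 2581, and 162 and 678 in that order of settings. Between the controls, 215 and 490 became 870 and 1324, 80 and 236, 723 and 1386, and 70 and 228. Depth limits ALDH1A1 most, at 19 to 83 counts.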

Other observations

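The genes nearest in pattern to the other ALDH genes called lower than in the control-siRNA library, over the 3 libraries and within 4-fold of their mean CPM, were looked up after the values of these genes were seen. For ALDH3B1 the nearest was GPX4, the peroxidase that reduces lipid hydroperoxides, with 5646, 5084 and 1738 counts in the WT, control-siRNA and SPRR1A-siRNA libraries and a log2 ratio of -1.46 to the control-siRNA library. PITPNM3 and NCAM1 followed, at log2 ratios of -1.43 and -1.42. For ALDH16A1 they were DAB2, an endocytic adaptor with 1680, 1910 and 532 counts, FAM25A, and LUM, the proteoglycan lumican, with 1058, 1184 and 353 counts. There were 8466 candidates for ALDH3B1 and 7997 for ALDH16A1, and such likeness over 3 libraries is a description only.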
